A study of Brassica napus with 8 samples.

Results

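The genes described here are 200 rapeseed genes that were measured in both 50 DPA seed and dry seed and were close to absent from 48 h germinating seed and young leaf. They were chosen on the deposited normalized table, from 106059 gene IDs. A gene had to reach 2 TMM-normalized CPM (CPM, counts relative to the library total, after scaling by the trimmed mean of M values) in both libraries of 50 DPA seed and both of dry seed. It had to stay below 1 in each of the 4 libraries of germinating seed and leaf, with a 50 DPA mean below 500. These limits left 623 genes, and the 200 with the highest lower mean of the 2 seed tissues were taken. The pattern across tissues was therefore fixed by the choice, and levels in it are given as a description.

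Rapeseed (Brassica napus) is an allotetraploid oil crop that carries an A and a C subgenome. The study measured polyadenylated RNA of cultivar Zhongshuang 11 to compare expression between organs, with 2 libraries for each of 4 tissues. These were seed labelled 50 DPA (days post anthesis), dry seed, seed after 48 h of germination and young leaf, with no other genotype or treatment named. Per the labels' protocols, vegetative tissue came from greenhouses and economically important organs from a farm, so tissue and growing place cannot be told apart where they differ. Nothing in the labels ties a library to its own plant or harvest, or the seed stages to 1 seed lot. P-values thus reflect the spread of these libraries alone and may hold technical spread only. The IDs had 0 matches in the gene table at hand, which describes the assembly Da-Ae, and the files pair them with no names. Tissue markers could therefore not be checked, and no product name, genome coordinate or sequence is given.

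A maturing seed fills its storage tissues, acquires tolerance to drying and then stops growth under the control of abscisic acid and a set of embryo regulators. Messenger RNA made late in this programme is kept in the dry seed. After water uptake, much of this stored RNA is degraded while transcription for seedling growth begins. Transcripts of the late programme are typically plentiful in maturing and dry seed and scarce in seedlings and leaves. In bulk tissue, fewer cells that use a gene and less RNA per cell cannot be told apart.

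Total counts ran from 27635445 to 55721357 per library. One normalized CPM stood for 23.6 and 25.4 counts in the 50 DPA seed libraries, 31.6 and 24.1 in dry seed, 73.2 and 55.4 in germinating seed, and 42.6 and 44.3 in leaf. Most counts are even numbers, between 80.5% and 85.4% of values above 0 per library over all genes. Among the 200 the shares were 65.5% to 73.5% in the 50 DPA and dry seed libraries. In the germinating seed and leaf libraries they were 86.2% to 90.4%. Even numbers are what counting each mate of a read pair would give. A floor of 6 counts was therefore used for levels near 0, and it covers counting error only.

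The 200 genes together took 1.78% ± 0.00684 of all counts in 50 DPA seed and 2.03% ± 0.0302 in dry seed (SD, n = 2). They took 0.00823% ± 0.000318 in germinating seed and 0.00297% ± 4.26e-05 in leaf. These shares use no TMM factor. The dry seed libraries gave shares of 2.005% and 2.048%, against 1.786% and 1.776% in those of 50 DPA seed, without overlap. The shares were spread differently over the genes. The 10 most abundant of them held 34.1% ± 0.348 of the group's counts in dry seed and 17.6% ± 0.192 in 50 DPA seed. The choice capped the mean level in 50 DPA seed but set no cap in dry seed. That cap limits both the group's share and its concentration in 50 DPA seed. Both contrasts between the seed tissues therefore describe the choice as well as the genes.

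In dry seed, mean levels of the 200 genes ran from 18.1 to 2030 CPM with a median of 54.98. In 50 DPA seed they ran from 17.7 to 487 CPM with a median of 83.5. The upper end at 50 DPA was set by the limit of 500, which removed 44 genes that met every other limit. Means of 100 CPM or more were held by 58 genes in dry seed and by 83 at 50 DPA. Among all genes ordered by level in dry seed, 1 of the 200 was within the first 100, at rank 50, and 33 within the first 1000. In 50 DPA seed none was within the first 100 (0 genes), the best rank was 209, and 70 were within the first 1000.

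**Figure D1:**
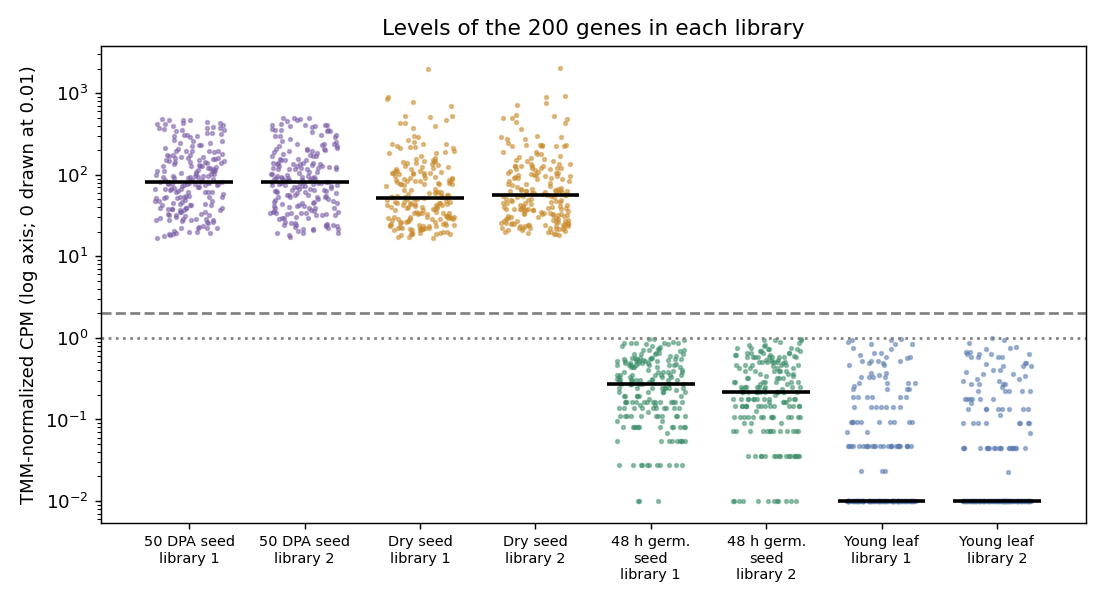
Each point is 1 of the 200 genes in 1 library, in TMM-normalized CPM on a log axis, with values of 0 drawn at 0.01. Black bars are medians, the dashed line is the limit of 2 and the dotted line the limit of 1. The seed libraries before germination have medians between 51.7 and 82.6 CPM, those of germinating seed 0.273 and 0.217, and those of leaf 0.

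The gene ranked first stood at 476.2 and 496.7 CPM in the 50 DPA seed libraries and at 699.3 and 717.1 in those of dry seed. It had 26 and 9 counts in germinating seed and 0 in both leaf libraries. The gene ranked second stood at 429.5 and 469.8 CPM at 50 DPA, 523.8 and 502.2 in dry seed, 0.984 and 0.866 in germinating seed, and 0.0470 and 0.0451 in leaf. It had the highest germinating seed mean of the 200. The last 2 genes taken had lower means of 18.00 and 17.72 CPM, and the first 2 left out had 17.71 and 17.70. The lowest value of any of the 200 in a single 50 DPA or dry seed library was 16.7 CPM, far above the limit of 2. At the other end, 13 genes had a value of 0.9 or more in some germinating seed or leaf library, and the highest was 0.993.

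How far the limits on germinating seed and leaf shaped the group can be counted. A further 643 genes met every limit except that of germinating seed, and a further 430 every limit except that of leaf. With a limit of 0.5 in place of 1, 391 genes passed and 133 of the 200 were taken again. On total counts alone 175 were taken again, and with DESeq2 size factors 192.

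Libraries of a tissue gave like values for these genes. The median absolute log2 ratio of the 2 libraries was 0.12 in dry seed and 0.07 in 50 DPA seed. Among the 6442 genes with at least the lowest member's lower mean in all 4 of these libraries it was 0.13 in dry seed and 0.09 in 50 DPA seed. The 2 dry seed libraries differed by over 2-fold for 1 of the 200, at 76.9 and 37.9 CPM, and no gene did so at 50 DPA (0 genes).

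Whether these genes were more or less abundant in dry seed than in 50 DPA seed was not fixed by their choice, although both levels were bounded and the 50 DPA mean was capped. Dry seed was lower for 100 of the 200 genes and higher for 53, and 47 did not pass (edgeR quasi-likelihood test over all 59062 genes tested, Benjamini-Hochberg adjusted p under 0.05). In all, 76.5% of the 200 were called, against 59.7% of all genes tested. The share called lower was 50.0%, against 33.8% of all genes, and the share called higher was 26.5%, against 26.0%. The median log2 change was -0.37 over the 200 and -0.05 over all genes tested. All 200 passed the filter on low counts, as their choice ensured. Their median SE was 0.13, against 0.31 over all genes, so a small change was more easily called in them.

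Among larger changes, falls outnumbered rises in the 200 genes and in all genes tested alike. Falls of at least 2-fold were called in 63 genes, 31.5% of the 200 against 27.9% of all genes. Rises of at least 2-fold were called in 23 genes, 11.5% against 18.5%. Falls of at least 4-fold were called in 22 genes, 11.0% against 19.4%, and rises of at least 4-fold in 11 genes, 5.5% against 8.91%. The limits on both levels narrow the changes that the 200 can show, so their shares of large changes describe the choice as well as the genes. Without regard to the test, both dry seed libraries lay below both 50 DPA libraries for 115 genes (39.9% of all genes tested did so, and 57.5% of the 200). They lay above both for 67 genes, 33.5% of the 200 against 31.3% of all genes. The 47 genes that did not pass had log2 changes between -0.39 and 0.37, which does not show that they were equal.

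**Figure D2:**
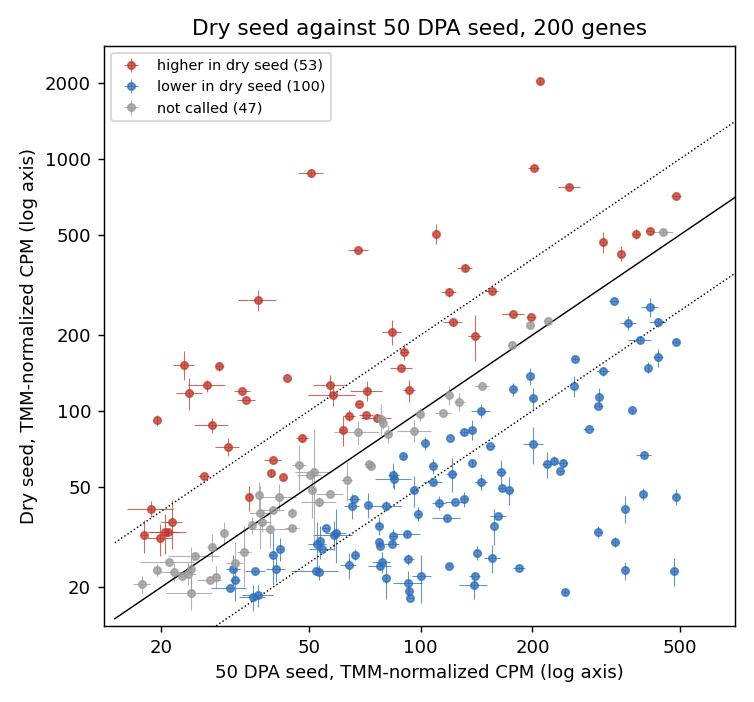
Mean level in dry seed (vertical) against 50 DPA seed (horizontal) for the 200 genes, both in TMM-normalized CPM on log axes, with bars of 1 SD over 2 libraries. The solid line marks equal levels and the dotted lines 2-fold differences; 53 genes were called higher in dry seed, 100 lower and 47 neither.

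The balance of directions differed between library scales. Of the 200, among those called on the TMM scale, 34.6% were higher in dry seed. Scaled by total counts alone, 75 were higher and 84 lower, which makes 47.2% higher, and the median log2 change over the 200 was -0.03. DESeq2 size factors gave 52 higher and 104 lower (33.3% higher), and upper-quartile factors 59 higher and 98 lower (37.6% higher). Of the calls over all genes tested, 43.5% were higher on the TMM scale and 53.6% on total counts. The shares were 42.9% with DESeq2 size factors and 46.3% with upper-quartile factors. The 200 thus had a smaller share of higher calls than all genes on each of these scales. Within the 200, lower genes clearly outnumbered higher ones on the TMM, DESeq2 and upper-quartile scales and only slightly on total counts alone. On total counts the share of higher calls was larger than on the TMM scale for both sets.

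Genes that rose in dry seed included the most abundant of the group. ZS11C09G070590 stood at 859.4 and 892.3 CPM in the dry seed libraries, against 47.9 and 53.4 in those of 50 DPA seed. Its log2 change of 4.11 (SE 0.13, edgeR adjusted p = 1.01e-09) was the largest rise of the 200, and it ranked 87 in the group because of its 50 DPA level. In germinating seed it stood at 0.957 and 0.650 CPM, against 0.376 and 0.632 in leaf. ZS11A01G033430 stood at 1992 and 2067 CPM in dry seed, against 208.8 and 210.3 in 50 DPA seed. This was the highest dry seed level of the group, with a log2 change of 3.28 (SE 0.11, edgeR adjusted p = 2.49e-09). It had 20 and 6 counts in germinating seed, against 14 and 8 in leaf. For both genes the libraries of the 2 seed tissues lay far apart and did not overlap.

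The largest falls were found on chromosome prefix A10. ZS11A10G027710 stood at 21.1 and 25.2 CPM in dry seed, against 474.3 and 489.6 in 50 DPA seed. Its log2 change was -4.38 (SE 0.14, edgeR adjusted p = 3.75e-09), and its 50 DPA mean of 482.0 ± 10.9 CPM (SD, n = 2) lay just under the limit of 500. ZS11A10G012970 stood at 22.0 and 24.7 CPM in dry seed, against 358.3 and 352.8 in 50 DPA seed, a log2 change of -3.93 (SE 0.14, edgeR adjusted p = 8.59e-09). Both had 0 counts in leaf, and in germinating seed they had 10 and 2 counts and 2 and 8 counts. The ranks of these genes, 169 and 167, were set by their dry seed level.

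**Figure D3:**
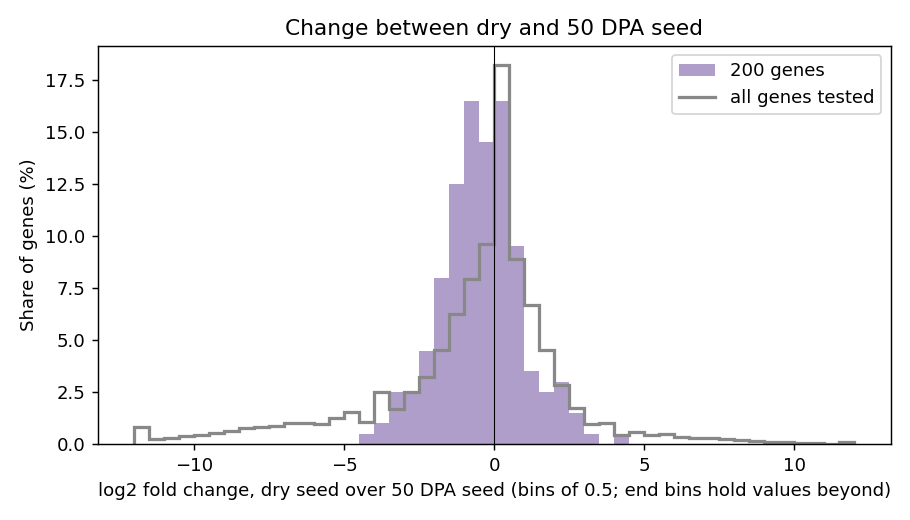
Share of genes (vertical, %) by log2 fold change of dry over 50 DPA seed (horizontal, bins of 0.5), filled for the 200 genes and outlined for all 59062 genes tested. The 200 lie between -4.38 and 4.11, a range that the limits on both levels narrow, with a median of -0.37.

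The 23 genes at least 2-fold higher in dry seed had a median of 150.4 CPM there and 36.4 CPM in 50 DPA seed. The 63 genes at least 2-fold lower had a median of 38.4 CPM in dry seed and 153.8 CPM in 50 DPA seed. Levels in the 2 seed tissues were related only loosely across the 200 genes (Pearson's r of log2 levels 0.457, Spearman's rho 0.444). The genes are not independent, and ranking by the lower mean shapes this relation.

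Of all 623 genes that passed the limits, 271 were lower and 185 higher in dry seed in the same fit, with a median log2 change of -0.29. Of all 59062 genes tested, 19936 were lower and 15345 higher (33.8% and 26.0%). With total counts alone the 623 were 222 lower and 226 higher, and all genes 16554 lower and 19112 higher. The balance thus differed between scales for the 623 and for all genes alike. The 623 genes took 2.70% ± 0.0474 of counts in dry seed and 2.49% ± 0.00831 in 50 DPA seed (SD, n = 2), so that the 200 held most of their RNA.

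Below the limit of 1 CPM, counts of the 200 genes were more often 0 in leaf than in germinating seed. The 200 genes had a median mean level of 0.250 CPM in germinating seed and 0.0226 in leaf. Counts of 0 were found for 3 and 12 genes in the germinating seed libraries, and for 106 and 111 genes in the leaf libraries. In both libraries of the tissue, 2 genes had no count in germinating seed and 88 had none in leaf. A single gene had no count in any of the 4 libraries, and 21 had at most 6 counts in each. Germinating seed was sequenced more deeply, and 6 counts stood at 0.0820 and 0.108 CPM there, against 0.141 and 0.135 in leaf. A count of 0 was therefore easier to reach in leaf.

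The choice had capped both tissues, and many of the 200 genes passed the filter on low counts only through the seed tissues in which they were high. The calls between germinating seed and leaf are therefore given as a description of low levels, and nothing is read from their shares beside those of all genes. Germinating seed was higher than leaf for 127 of the 200 genes and lower for 15, and 58 did not pass (edgeR quasi-likelihood test, adjusted p under 0.05). Of all genes tested, 66.0% were called, 32.7% higher and 33.3% lower, against 71.0%, 63.5% and 7.50% of the 200. Both germinating seed libraries lay above both leaf libraries for 142 genes (71.0%, against 43.2% of all genes) and below for 19 (9.50%, against 43.7%). Of the 127 higher genes, 74 had no count in leaf, so a fold change would depend on the prior count and none is given. For 105 of the 127 the germinating seed mean exceeded the leaf floor of 0.141 CPM. The 15 lower genes had means of 0 to 0.390 CPM in germinating seed and 0.185 to 0.896 in leaf. The highest leaf mean belonged to a gene at 0.574 and 0.180 CPM in germinating seed, against 0.846 and 0.947 in leaf.

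These are differences between levels of 0 to 72 counts. A fit of these 2 tissues alone, whose filter left 108 of the 200 genes, called 67 higher and 11 lower. limma called 71 higher and 9 lower on log2 of the normalized value plus 1, and 94 and 14 with 0.5 added. Without young leaf library 1, 9 genes were lower. With total counts alone the median log2 change of all genes was 0.11 in place of 0.00, and 135 were higher and 14 lower.

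**Figure D4:**
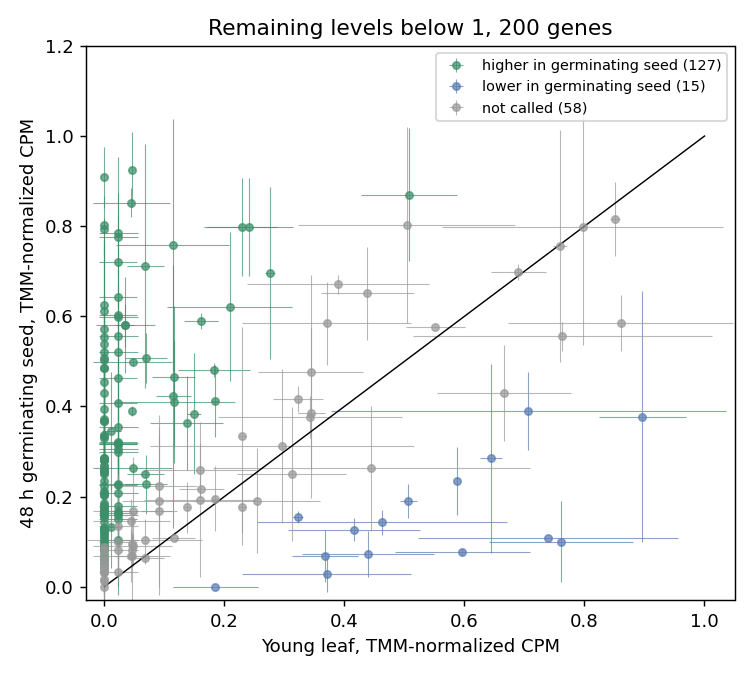
Mean level in 48 h germinating seed (vertical) against young leaf (horizontal) for the 200 genes, in TMM-normalized CPM on linear axes, with bars of 1 SD over 2 libraries. The line marks equal levels; 127 genes were called higher in germinating seed, 15 lower and 58 neither, and 88 sit at 0 in leaf.

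The limit of 1 CPM and the ranking by seed means fixed in advance that shares of the dry seed level were low. At 48 h the germinating seed level had a median of 0.339% of the dry seed level. Its quartiles were 0.178% and 0.724%, and the highest value was 3.09%. Leaf levels had a median of 0.0193% of those of dry seed. Across the 200 genes, Spearman's rho of the germinating seed level was 0.367 with the dry seed level and 0.129 with the 50 DPA level. These values describe genes, which are not independent, share libraries, and rest on few counts in germinating seed. The 53 genes higher in dry than in 50 DPA seed had a median of 0.368 CPM in germinating seed, and the 100 lower ones 0.177. As a share of dry seed, the order was turned, at 0.202% and 0.393%. The groups were formed by dry seed over 50 DPA level, and their dry seed medians were 126.1 and 41.95 CPM. Germinating seed was capped for both, so the turned order describes the divisor as well as the genes.

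Position was not used in the choice. The prefix of an ID names a chromosome, and the 200 genes fell on all 19 prefixes, from 3 genes on A05 and on C07 to 20 on C03 and 19 on A03. The A prefixes held 104 of them (52.0%) and the C prefixes 96 (48.0%), while 45.0% of the genes in the normalized table had an A prefix and 54.7% a C prefix. Among all 623 genes the A share was 49.0%. Prefix A10 held 13 genes, 6.50% of the 200 and 3.28% of the table, whereas C07 held 1.5% and 5.71%. Of the 63 genes at least 2-fold lower in dry seed, 41 had an A prefix and 22 a C prefix. The 37 called lower by less than 2-fold were 14 and 23, and the 53 higher ones 26 and 27. These counts are small and carry no test. The split by prefix was not counted among all genes called lower or higher, so the splits by direction have no matching background.

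**Figure D5:**
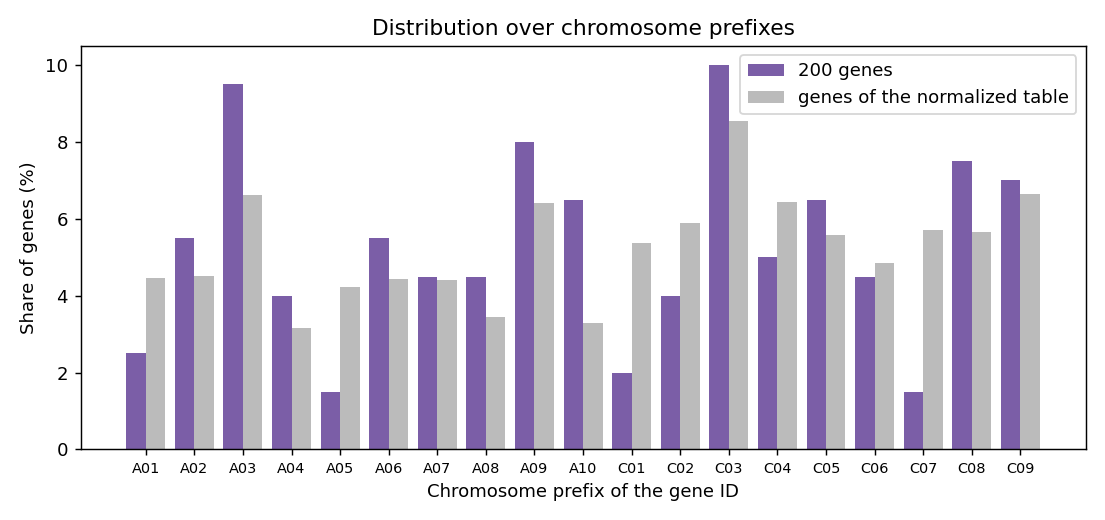
Share of genes (vertical, %) on each chromosome prefix of the gene ID (horizontal), for the 200 genes and for the 74684 genes of the normalized table. C03 and A03 hold the highest numbers of the 200, with 20 and 19 genes, and A05 and C07 the fewest, with 3 each.

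Few of the genes had a neighbour that met the same limits. Neighbours were counted per gene, so an adjacent pair counts from each side. Of the 400 neighbours of the 200 so counted, 4 met the limits (1.0%), against 0.660% of the neighbours of all genes in the table. For all 623 genes that passed, the share was 1.608% (20 of 1244 neighbours, 10 adjacent pairs), also above that of all genes. No test was made of these shares. Only 1 pair of the 200 was adjacent, on A04, and it entered the 4 from each side. One of the pair stood at 33.7 and 32.2 CPM in dry seed, against 22.6 and 19.1 in 50 DPA seed. Its neighbour stood at 19.5 and 18.9 CPM in dry seed, against 247.0 and 242.1 in 50 DPA seed, so the adjacent genes changed in opposite directions (log2 changes of 0.66 and -3.67, edgeR adjusted p = 0.00133 and 3.75e-09). Neighbouring IDs reached 1 CPM in leaf and germinating seed at shares near those for all genes, with the widest gap in dry seed. Of the neighbours of the 200, 48.0% reached a mean of 1 CPM in leaf, against 45.0% of the neighbours of all genes in the table. The same shares were 46.0% and 35.8% in dry seed, 47.2% and 40.5% in 50 DPA seed, and 44.5% and 42.6% in germinating seed. Rapeseed holds many near-identical gene copies, and how reads that map to several of them were counted is not stated, which leaves the level of any 1 ID uncertain. None of the 200 had the same counts as another gene in all 8 libraries (0 genes).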

How the data were processed

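Polyadenylated RNA of 8 libraries was measured as counts per gene, and the authors deposited whole-number count tables of 106059 IDs for 3 and for 4 tissues. In the libraries that these share, 0 values differed. From the 4-tissue table, 1 line that names alignment files was removed. The submitters' processing notes name FastQC, HISAT2, SAMtools and edgeR; their versions, the counter, the build and the annotation are not stated in the sources used. The deposited TMM table holds a normalized signal, each value being the count times 1 constant per library (within 9.33e-05), equal to CPM with edgeR's TMM factors on all genes with a count.

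The 200 genes were taken from that table by the stated limits. Tests used the counts: filterByExpr, TMM factors, and a quasi-likelihood fit in edgeR 4.0.16 under R 4.3.3 of 1 mean per tissue over all 8 libraries, 2-sided, Benjamini-Hochberg over 59062 genes, threshold 0.05. SEs are the log2 change over the square root of F. Alternatives used DESeq2 1.42.0 and limma 3.58.1. On simulated counts for dry against 50 DPA seed (56545 genes), the test found 46 of 100 genes with a 2-fold change and 87 of 100 with a 4-fold change, and 15 unchanged genes were called. The simulated tissues shared 1 mean share per gene apart from the changes set in dry seed. Changed genes were drawn from low counts upward. The 200 genes had median counts of 1353 to 2087 per 50 DPA or dry seed library, so these rates need not hold for them.

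Members, lists and tests were chosen with earlier results of these data known. As IDs had no names, the named IDs were the 2 largest called changes per direction between dry and 50 DPA seed without overlap of libraries; other genes were singled out after their values were seen. Lists by product name could not be applied.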

Additional observations from a re-analysis of the deposited data

How the results depend on the processing

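For dry against 50 DPA seed, 153 of the 200 genes were called, and the counts stayed within 1.5 times under the other scales, filters and tools and with halved counts. Requiring 2-fold left 86 (23 higher, 63 lower), since the minimum only removes calls. Leaving out 1 library gave 140 to 155 calls, 41 to 54 higher and 99 to 106 lower, and a median log2 change of -0.50 to -0.38. With total counts alone this median was -0.033, and that of all genes tested was 0.00 in place of -0.05. That scale drops the TMM factors, which were 0.6933 and 0.6896 for 50 DPA seed and 0.8854 and 0.8662 for dry seed. Why the factors differ between these tissues was not tested. Each of the 4 named genes stayed called in its direction, in 76 of 76 refits; they were picked for large changes.

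For germinating seed against leaf, 142 were called, 71.0% of the 200 against 66.0% of all genes tested. The choice had capped both tissues, and many of the genes passed the filter only through the seed tissues. These calls therefore describe low levels, and nothing is read from them. limma called 80 with a pseudocount of 1 (71 higher, 9 lower) and 108 with 0.5; whether the test or the pseudocount lowered the number was not tested. A fit of the 2 tissues, whose filter left 108 of the 200 genes, called 78 (67 higher). Whether the filter alone lowered the number was not tested. Leaving out 1 library gave 120 to 152 calls, 108 to 137 higher and 9 to 15 lower. A lone library was assumed to vary like the other tissues.

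With the replicate block, 153 genes were called for dry against 50 DPA seed and 142 for germinating seed against leaf. Deviations of same-numbered libraries correlated at -0.0086 to 0.0064 between tissues, and the libraries share only a number.

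Up to 6 counts in each leaf and germinating seed library were found for 21 genes. All 623 genes that pass the limits took 2.49% of counts in 50 DPA seed, 2.70% in dry seed, 0.0247% in germinating seed and 0.0138% in leaf, since they include the 200. Depth limits what can be said below about 0.14 CPM in leaf and 0.11 CPM in germinating seed.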
